A study of Saccharomyces cerevisiae with 8 samples.

Results

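The NaCl response of yeast cells that carry *cdc14-3* and lack *SNF1* was set against that of cells that lack *SNF1* alone, so that the *cdc14-3* allele is the labelled difference between the strains. The comparison uses 6 of the 8 arrays of the series, chosen by their genotype labels. They are 3 arrays of the *cdc14-3 snf1* strain and 3 arrays of the *snf1* strain, all of *Saccharomyces cerevisiae* in the W303 background. The other 2 arrays are of *cdc14-3* cells with *SNF1* intact and entered only the estimate of each gene's spread. Cells of every group were grown in rich YPD medium at 25 °C, moved to 35 °C, and given 0.7 M NaCl for 30 min while still at 35 °C. In both *snf1* strains replicate 1 had spent 90 min at 35 °C before the salt, and replicates 2 and 3 had spent 2 h there. The unstressed cells on each array came from the same strain and, according to the methods, were sampled right before salting, so that the treated cells had been at 35 °C for longer. Wild-type arrays were not analysed here, and the values show what the allele adds to a strain that already lacks the kinase. That strain pair models loss of Cdc14 activity only through 1 temperature-sensitive allele. The labels do not say that replicates came from separate cultures, and the p-values below measure only the spread between these arrays.

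Cdc14 is the phosphatase that reverses phosphorylation by the mitotic cyclin-dependent kinase, and budding yeast needs it to leave mitosis. It is held in the nucleolus until anaphase, and cells with a temperature-sensitive allele stop late in mitosis at the restrictive temperature. Snf1 is the AMP-activated kinase of yeast, best known for releasing genes from glucose repression. In the cell cycle of yeast, the transcription factors SBF and MBF drive genes of the G1/S transition, and a forkhead complex drives the *CLB2* cluster of mitosis. Hyperosmotic stress by salt normally induces genes of glycerol synthesis and the general stress response and represses genes for ribosomes.

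Every value is a log2 ratio of NaCl-treated over unstressed cells of one strain, and a difference is the ratio of *cdc14-3 snf1* minus that of *snf1*. A higher value therefore means more induction or less repression by salt, and says nothing of transcript levels before salt. The values come without a stated log base or direction. Base 2 is likely from how the study plots its ratios, and the direction was read from the values, since the median over 67 targets of the osmotic stress factor Hot1 was above 0 on each of the 6 arrays and the median over ribosomal protein genes was negative. The table held 6868 features, with a value for 6401 to 6776 of them on the 6 arrays. The SD over the features of an array was largest on *snf1* replicate 1, at 1.10, and lay between 0.72 and 0.89 on the other 5. The ratio of *SNF1* itself was 2.41, -0.30 and -0.43 on *snf1* replicates 1, 2 and 3, and 0.19, 0.28 and 0.03 on those of *cdc14-3 snf1*. One array thus stood apart for a gene that both strains are labelled to lack, and a ratio within a strain cannot check a deletion. The difference in *SNF1* was not called (0.52, SE 0.17, adjusted p = 0.0614 on the 2 h arrays, and -0.39, adjusted p = 0.76 on all arrays, both in limma). *CDC14* gave 0.46, 0.52 and 0.44 in *snf1* and 0.36, 0.00 and 0.21 in *cdc14-3 snf1*, and its difference was not called either (-0.37, SE 0.17, adjusted p = 0.147 on the 2 h arrays in limma).

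With the 3 arrays of one strain set against the 3 of the other, no gene passed an adjusted p of 0.05 among 6135 tested in limma (smallest adjusted p = 0.0574), although 1137 genes, 18.5%, had an unadjusted p under 0.05. Of these 490 (7.99%) were higher and 647 (10.5%) were lower in the double mutant. The absence of calls depends on how the 90 min arrays are treated. With heat time as a covariate 110 genes were called, 28 higher and 82 lower, and without the 90 min array of *snf1* 731 were. On the arrays held for 2 h alone, 2 against 2, limma called 1382 of 6096 genes, 22.7%. The double mutant had the higher ratio for 600 of them, 9.84% of genes tested, and the lower ratio for 782, 12.8%. Of the 600 genes, 343 averaged below 0 in *snf1* and above 0 in *cdc14-3 snf1*, 108 were above 0 in both and 149 below 0 in both. Of the 782 genes, 300 were above 0 in *snf1* and below 0 in the double mutant, 199 were above 0 in both and 283 below 0 in both. The number of calls rests on having both arrays of each strain. It dropped to 8 when *snf1* replicate 2 was omitted and to 754 when its replicate 3 was. Omitting replicate 2 or 3 of *cdc14-3 snf1* gave 77 or 729 calls. Of the 40 gene lists described below, 35 held no call without *snf1* replicate 2 and 19 held none without replicate 2 of *cdc14-3 snf1*, whereas 5 held more calls without replicate 3 of *cdc14-3 snf1*. None of the 260 genes that are called at 2 h and named by the rules under processing turned its direction when an array was left out. These genes were chosen by their calls on the same arrays, so an unchanged direction is nearly given and is no separate check.

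The 90 min arrays take no part in the 2 h comparison and give the same difference at 1 array per strain, with no replicate. Of the 600 genes higher at 2 h, 328 (54.7%) were also higher at 90 min, where 51.9% of all 6096 genes were. Of the 782 genes lower at 2 h, 399 (51%) were lower at 90 min, against 48.1% of all genes. Over the 6096 genes, which are not independent replicates, the differences at the 2 heat times correlated with r of 0.13 (Spearman's rho 0.05). As a description of precision, the difference between the replicates 2 and the difference between the replicates 3 correlated with r of 0.71. A test of whether the strain difference depended on the heat time called no gene (smallest adjusted p in limma 0.103), and 1252 of 6096 genes, 20.5%, had an unadjusted p under 0.05 in it. That test assumes that the single 90 min arrays vary like the 2 h arrays. Heat time, replicate number and any other difference between these sets of arrays cannot be told apart.

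**Figure D1:**
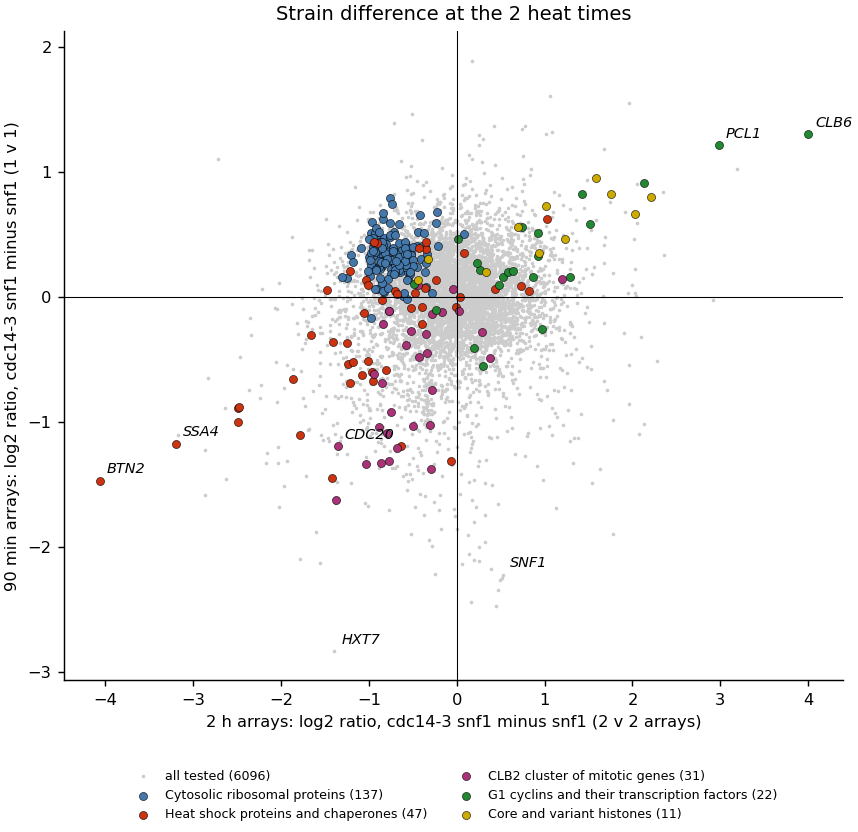
Each point is a gene, with the difference in log2 NaCl ratio (*cdc14-3 snf1* minus *snf1*) on the 2 h arrays on the x axis and in the 90 min pair on the y axis. Colours mark 5 gene groups. Most G1 cyclin and histone genes lie at the upper right and most *CLB2* cluster genes at the lower left, with *CLB6* at 4.0 and 1.30 and *CDC20* at -1.36 and -1.19, while 135 of 137 ribosomal protein genes lie above 0 at 90 min and 79 are called lower at 2 h.

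The genes furthest apart between the strains were a cyclin gene on one side and a protein-sorting factor on the other. *CLB6*, which encodes an S phase cyclin, gave ratios of -0.29, -0.57 and -0.31 on the *snf1* arrays and 1.01, 3.79 and 3.32 on the *cdc14-3 snf1* arrays. All 3 *snf1* arrays were below 0 and all 3 double-mutant arrays above it, with the 90 min array the lowest of its strain. At 2 h the difference was 4.0 (SE 0.21, adjusted p = 0.00129 in limma), and over all arrays it was 3.10 (SE 0.58, adjusted p = 0.11). *BTN2*, which encodes a factor that sorts misfolded proteins, gave 4.85, 5.18 and 4.59 in *snf1* and 3.38, 0.82 and 0.83 in *cdc14-3 snf1*. *BTN2* was above 0 on every array of both strains, and lower on each array of the double mutant than on any of *snf1*. Its difference was -4.06 (SE 0.22, adjusted p = 0.00129 in limma) at 2 h and -1.47 in the 90 min pair. Because the strains did not overlap for either gene, the exact two-sided permutation test over 3 arrays against 3 could only give p = 0.1. That is the smallest value it can give, and it is no separate support.

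Genes of the G1/S transition were higher in *cdc14-3 snf1*. Of 22 genes for G1 cyclins and their transcription factors, 11 were called higher at 2 h, where 9.84% of all genes tested were, and 0 lower, where 12.8% were. Their median difference was 0.69, and that over all genes tested was -0.08. Over all arrays 11 of the 22 were higher at an unadjusted p under 0.05 in limma, and 0 lower. In the 90 min pair 18 of the 22 were higher, with a median of 0.21 against 0.02 over all genes. The list's median lay between -0.43 and -0.29 on the *snf1* arrays and between 0.09 and 0.30 on the *cdc14-3 snf1* arrays. The 3 arrays of one strain stood entirely above the 3 of the other for 10 of the 22 genes, a separation seen upward for 8.74% and downward for 10.6% of all genes with 6 values. With 1 of the 2 h arrays left out, between 1 (without *snf1* replicate 2) and 11 members were called, 4 of them without *cdc14-3 snf1* replicate 2, and the median stayed between 0.66 and 0.87.

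*PCL1*, a cyclin that partners the kinase Pho85 in G1, gave -0.50, -0.57 and -0.47 in *snf1* and 0.72, 2.82 and 2.10 in *cdc14-3 snf1*. The strains did not overlap, and the difference was 2.98 (SE 0.30, adjusted p = 0.00745 in limma) at 2 h. *CLN2*, a G1 cyclin that triggers the start of the cycle, gave -1.86, -1.49 and -1.18 in *snf1* and -1.28, 0.25 and 0.11 in the double mutant. Here the 90 min array of *cdc14-3 snf1* lay within the range of *snf1*, and only the 2 h arrays parted (1.52, SE 0.17, adjusted p = 0.00796). Its partner *CLN1* gave -1.03, -1.17 and -0.83 against -0.87, 0.27 and 0.32, overlapping in the same way, with a 2 h difference of 1.29 (SE 0.19, adjusted p = 0.0099). *CLB5*, the other S phase cyclin of the *CLB5* and *CLB6* pair, gave -0.08, 0.14 and 0.05 against 0.44, 1.10 and 0.94, without overlap (0.92, SE 0.16, adjusted p = 0.0131). *SWI4*, the DNA-binding subunit of SBF, went from -0.11, -0.34 and -0.45 to 0.05, 0.33 and 0.61, also without overlap (0.87, SE 0.17, adjusted p = 0.0189).

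Other members of the list with a regulatory role showed the same direction. *YOX1*, a homeodomain repressor of M/G1 genes, differed by 2.13 at 2 h and by 0.91 at 90 min. *MSA2*, an activator of SBF and MBF genes, gave 0.49, 0.12 and 0.32 in *snf1* and 1.31, 1.64 and 1.64 in *cdc14-3 snf1*, and was among the 5 higher genes with the smallest p over all arrays (1.22, adjusted p = 0.0764). The other called members were *CLN3*, *TOS4* and *BCK2*. *CLN3*, the upstream cyclin of G1, differed by 0.97 at 2 h and by -0.26 at 90 min. The remaining subunits of SBF and MBF did not pass the test. *SWI6* differed by 0.49 (adjusted p = 0.0835) and *MBP1* by 0.53 (adjusted p = 0.198), and *WHI5*, the repressor of SBF, by 0.20 (adjusted p = 0.581). *SIC1*, which encodes the inhibitor of S phase cyclins, differed by 0.01 (adjusted p = 0.973).

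**Figure D2:**
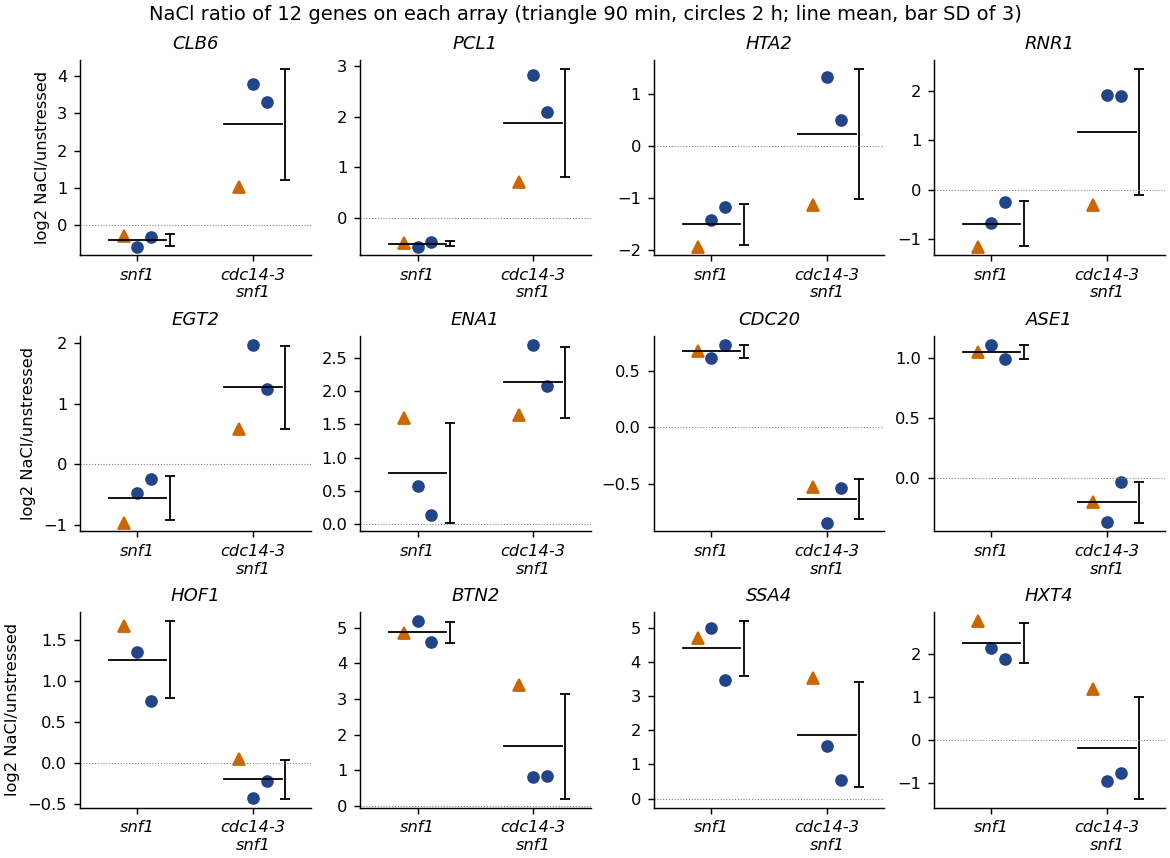
Log2 ratio of NaCl-treated over unstressed cells for 12 genes, with the 90 min array as a triangle, the 2 h arrays as circles, the mean of 3 arrays as a line and its SD as a bar. Scales differ between panels. The strains are apart on all 3 arrays for *CLB6*, *PCL1*, *EGT2*, *CDC20*, *ASE1*, *HOF1*, *BTN2* and *HXT4*, and narrowly so for *HTA2* and *ENA1*, whereas the double mutant's 90 min array lies within the *snf1* range for *RNR1* and *SSA4*.

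The copy used here of a list of cell cycle genes that the study drew up as rising aberrantly in *cdc14-3* cells after NaCl holds 130 genes, which is short of the full list, and why is not known. It had 55 genes called higher and 1 lower (*SPC25*, a kinetochore gene, -0.58), where 9.84% and 12.8% of all genes tested were. The median difference was 0.61 at 2 h and 0.34 at 90 min. Of the 130, 105 were higher in the 90 min pair. The study chose the list on *cdc14-3* cells against wild type after 90 min of heat, on arrays that are likely not among these, and its direction here is not independent evidence. Its G1 class accounted for 46 of the 89 genes in it called higher at 2 h, and its S class for 7 of 19. Neither the 4 genes of its G2/M class nor the 9 of its S/G2 class held a gene called higher, and of the 9 M/G1 genes 2 were. The strongest members beside *CLB6* and *PCL1* were *TOS6*, which encodes a predicted cell wall protein, and *RNR1*, the large subunit of ribonucleotide reductase. *TOS6* gave -3.05, -2.08 and -1.60 in *snf1* and -2.03, 1.91 and 0.79 in *cdc14-3 snf1* (2 h difference 3.19, SE 0.36, adjusted p = 0.00796 in limma). *RNR1* gave -1.15, -0.67 and -0.24 against -0.31, 1.90 and 1.89 (2.35, SE 0.19, adjusted p = 0.00566). In both genes the strains overlapped through the 90 min array of the double mutant alone. Without *snf1* replicate 2 the list held 2 genes called higher, and without *cdc14-3 snf1* replicate 2 it held 13, at medians of 0.56 and 0.56.

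Histone genes formed the group with the largest median difference of the 41 lists. Of 11 core and variant histone genes 7 were called higher and 0 lower, against 9.84% and 12.8% of all genes tested. Their median was 1.02 at 2 h and 0.56 at 90 min, and all 11 were higher in the 90 min pair. For 2 of the 11 the 3 double-mutant arrays all lay above the 3 *snf1* arrays, as for 8.74% of all genes with 6 values. The 7 were *HTA1*, *HTA2*, *HTB1*, *HTB2*, *HHT2*, *HHF1* and *HHF2*, each a core histone gene. The 4 members not called were the core gene *HHT1*, the variants *HTZ1* (-0.33, adjusted p = 0.364) and *CSE4*, and the linker gene *HHO1*. *HTA2*, one of the pair of H2A genes, gave -1.94, -1.42 and -1.18 in *snf1* and -1.14, 1.32 and 0.49 in *cdc14-3 snf1* (2.21, SE 0.29, adjusted p = 0.00914 in limma), with the lowest double-mutant array just above the highest of *snf1*. The list's median was below 0 on the 3 *snf1* arrays and on the 90 min array of the double mutant, and above 0 on the 2 h arrays of the double mutant, where it was 0.71 and 0.07. The copies of a core histone gene are nearly identical and their probes may not tell them apart, so these are fewer than 7 separate measurements. Without *snf1* replicate 2 no histone gene was called and without *cdc14-3 snf1* replicate 2 only 1, at medians of 0.86 and 0.83.

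The machinery of S phase was divided. Of 55 genes for DNA replication and nucleotide supply, 14 were called higher and 3 lower, where 9.84% and 12.8% of all genes tested were. Their median was 0.16 at 2 h and 0.24 at 90 min. The 2 h median lay between 0.07 and 0.27 when an array was left out. *POL12*, a subunit of the DNA polymerase alpha complex that starts each strand, gave -0.58, -0.60 and -0.74 in *snf1* and 0.24, 0.60 and 0.40 in *cdc14-3 snf1*, on opposite sides of 0 on all arrays (1.17 at 2 h, SE 0.16, adjusted p = 0.00917 in limma). *POL30*, which encodes the sliding clamp PCNA, differed by 1.45 at 2 h and 0.71 at 90 min, and the replication initiation factor *MCM10* by 1.31 and 0.51. The lower genes included *CDC6* and *TAH11*, both needed to load the replicative helicase in G1. *CDC6* gave 0.79, 1.01 and 1.13 in *snf1* and 0.11, -0.22 and 0.07 in *cdc14-3 snf1*, without overlap (-1.14, SE 0.17, adjusted p = 0.0101). *TAH11* differed by -1.21 at 2 h and -0.31 at 90 min, and the third was *RNR4*, the small subunit of ribonucleotide reductase, at -1.02 and -0.22. In the list for DNA damage and mismatch repair 6 of 26 were higher and 1 lower. The checkpoint gene *RAD9* differed by 0.99 and the recombination gene *RAD52* by 0.76, whereas *HUG1*, an inhibitor of ribonucleotide reductase induced by DNA damage, differed by -1.02.

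Genes of cohesin, which holds sister chromatids together, were on the higher side. Of 12 members 4 were called higher and 0 lower, where 9.84% and 12.8% of all genes tested were. The list's median was 0.39 at 2 h and 0.15 at 90 min. *MCD1*, the cleavable subunit of the ring, gave 0.03, 0.48 and 0.06 in *snf1* and 0.79, 2.09 and 1.93 in *cdc14-3 snf1*, without overlap (1.74, SE 0.19, adjusted p = 0.00796 in limma). The others were the cohesin genes *IRR1* (0.88) and *PDS5* (0.78) and the separase gene *ESP1* (0.92 at 2 h, -0.37 at 90 min). Among 49 genes of budding, polarity and septins 13 were higher and 2 lower, at a median of 0.10, which lay between 0.04 and 0.17 when an array was left out. They included *AXL2*, a landmark of axial budding (2.05), and *SWE1*, the kinase that inhibits Cdc28 before mitosis (1.13, with 90 min values of 0.65 against 0.12 and no overlap). The 2 lower were *UTR2* (-0.94), a cell wall crosslinking enzyme, and *GIC1* (-0.88), an effector of Cdc42.

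Mitotic genes differed the other way. Of 31 genes in or near the *CLB2* cluster, 12 were called lower and 1 higher at 2 h, where 12.8% and 9.84% of all genes tested were. Their median was -0.52 at 2 h, and at 90 min it was -0.49 with 28 genes below 0. The list's median was between 0.04 and 0.21 on the *snf1* arrays and between -0.52 and -0.37 on the *cdc14-3 snf1* arrays. For 18 of the 31 the 3 double-mutant arrays all lay below the 3 *snf1* arrays. *CDC20*, an activator of the anaphase-promoting complex, gave 0.67, 0.61 and 0.73 in *snf1* and -0.52, -0.84 and -0.54 in *cdc14-3 snf1*. The arrays of a strain lay close together and the strains far apart at both heat times (-1.36 at 2 h, SE 0.17, adjusted p = 0.00882 in limma, and -1.30, adjusted p = 0.0574 over all arrays). *HOF1*, which acts in cytokinesis, gave 1.68, 1.36 and 0.75 against 0.06, -0.42 and -0.22 (-1.38, SE 0.23, adjusted p = 0.0128). *CLB2*, the main mitotic cyclin gene, gave -0.18, -0.07 and 0.07 against -1.51, -0.98 and -0.74 (-0.86, SE 0.16, adjusted p = 0.0166).

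Regulators of late mitosis were among the lower genes. *CDC5*, the polo kinase, gave 0.21, 0.06 and 0.33 in *snf1* and -0.83, -0.76 and -0.62 in *cdc14-3 snf1* (-0.89, SE 0.17, adjusted p = 0.0166 in limma). *SWI5*, the transcription factor of the M/G1 boundary, differed by -0.75 (adjusted p = 0.0245) at 2 h and by -0.92 in the 90 min pair. *NDD1*, an activating subunit of the forkhead complex, was the only called member of the list that was higher, at 1.20 at 2 h and 0.14 at 90 min. Without *snf1* replicate 2, or without *cdc14-3 snf1* replicate 2, no member of the list was called, at medians of -0.44 and -0.55. In the list of spindle and motor genes 6 of 29 were called lower and 1 higher, where 12.8% and 9.84% of all genes tested were. That list's median was -0.22 at 2 h and -0.27 at 90 min. The median was -0.01 without *snf1* replicate 2 and -0.12 without *cdc14-3 snf1* replicate 2, with no member called in either case. *ASE1*, which bundles microtubules at the spindle midzone, gave 1.05, 1.11 and 0.99 against -0.21, -0.37 and -0.03, above 0 on every *snf1* array and below 0 on every array of the double mutant (-1.25, SE 0.18, adjusted p = 0.00945). Its difference was -1.26 at 90 min, close to that at 2 h. Also lower were the kinetochore gene *SPC24* (-1.13) and the kinesin partners *CIK1* (-1.11) and *VIK1* (-0.85). *DYN1*, which encodes dynein heavy chain, was higher (1.02 at 2 h, -0.25 at 90 min).

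The pathway of *CDC14* itself showed no common direction. Of 24 genes of the mitotic exit network and the FEAR network, which release Cdc14 from the nucleolus, 4 were higher and 4 lower. Over all genes tested 9.84% were called higher and 12.8% lower. The list's median was -0.03 and lay between -0.20 and 0.05 when an array was left out. The kinase gene *CDC15* (0.95), the regulator *LTE1* (1.44), the scaffold *NUD1* (0.76) and *ESP1* were higher at 2 h, and in the 90 min pair they differed by -0.15, 0.15, -0.03 and -0.37. The 4 lower, *CDC20*, *CDC5*, the kinase partner *MOB1* (-0.94) and *BNS1* (-0.77), were lower at 90 min as well, at -1.19, -1.04, -0.62 and -0.11. *NET1*, which holds Cdc14 in the nucleolus, differed by 0.14 (adjusted p = 0.594 in limma) and *TEM1*, the network's GTPase, by -0.17 (adjusted p = 0.47).

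Genes of the M/G1 boundary were split. *EGT2*, which encodes a cell wall protein of daughter cell separation, gave -0.96, -0.47 and -0.25 in *snf1* and 0.59, 1.96 and 1.24 in *cdc14-3 snf1*, on opposite sides of 0 on every array (1.96 at 2 h, SE 0.25, adjusted p = 0.00907 in limma, and 1.82, adjusted p = 0.11 over all arrays). *CTS1*, the endochitinase that frees the daughter cell, differed by 1.49 at 2 h and 0.93 at 90 min. Of 17 genes bound by Mcm1 or expressed at M/G1, 6 were lower and 2, *SWI4* and *CLN3*, higher (median -0.45 at 2 h, -0.17 at 90 min). Over all genes tested 12.8% were called lower and 9.84% higher. The 6 included the pheromone receptor *STE2* (-0.92), the pheromone exporter *STE6* (-0.96) and *FAR1*, which arrests mating cells in G1 (-0.85). In the mating list 12 of 39 were lower and 3 higher (median -0.20, between -0.33 and -0.14 when an array was left out). *PRM1*, a membrane protein of cell fusion, gave 3.70, 2.64 and 2.79 against 2.19, 0.48 and 1.01, without overlap (-1.97, SE 0.36, adjusted p = 0.0147). Meiosis and sporulation genes were lower for 8 of 34 and higher for 1 (median -0.46 at 2 h, -0.60 at 90 min), with *SPO13*, which acts in the first meiotic division, at -2.04 and -0.84.

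**Figure D3:**
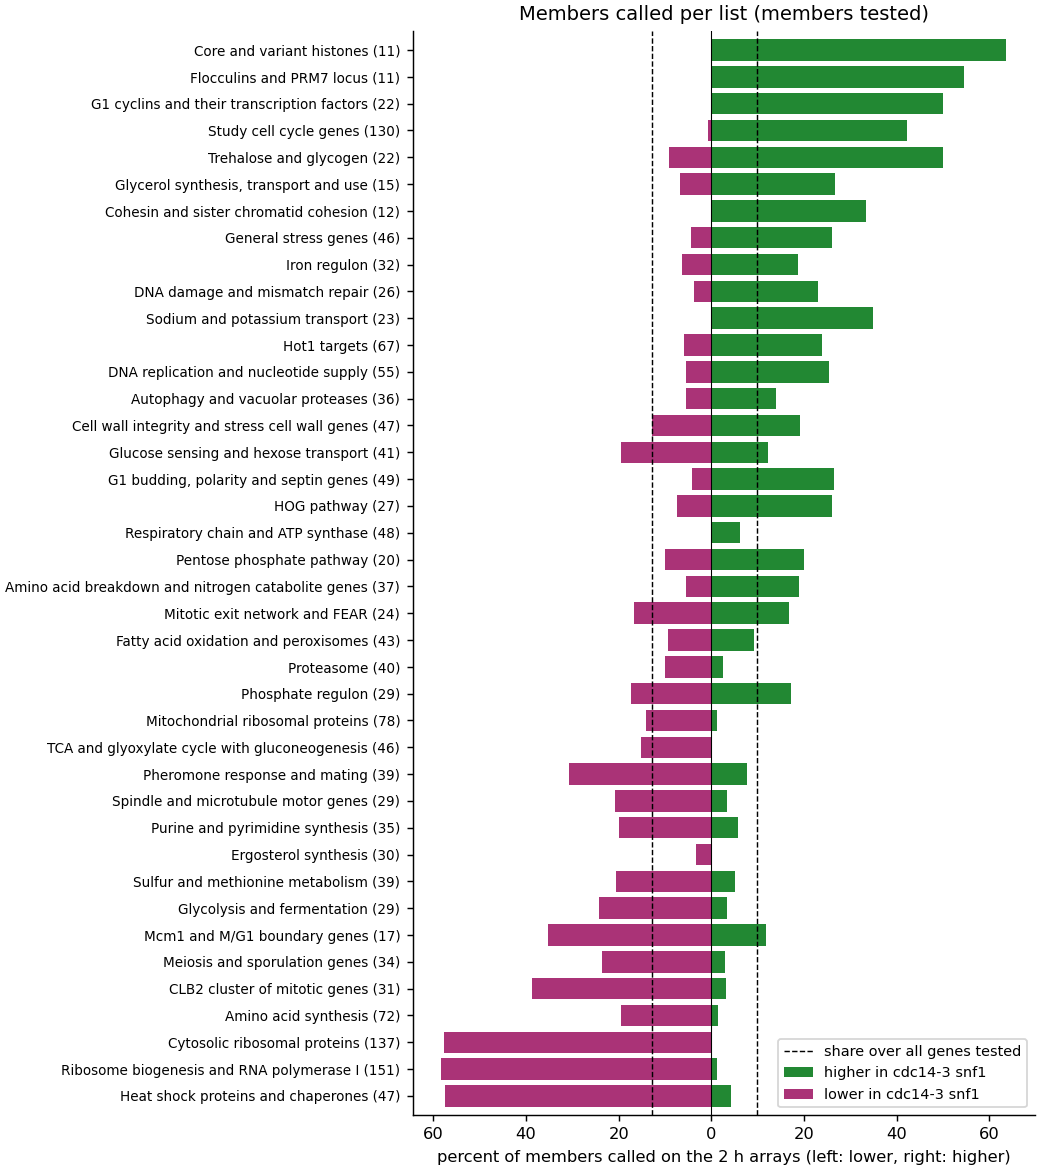
Percent of the tested members of each gene list described called higher (right) or lower (left) in *cdc14-3 snf1* on the 2 h arrays, ordered by median difference, with the number tested in parentheses. Dashed lines mark the shares over all genes tested, 9.84% higher and 12.8% lower. Histone, flocculin, G1 cyclin and trehalose lists reach furthest right, and chaperone, ribosome biogenesis and ribosomal protein lists furthest left.

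Chaperone genes had the lowest median of the lists. Of 47 heat shock proteins and chaperones 27 were called lower and 2 higher at 2 h, with a median of -0.94, and 16 had all 3 double-mutant arrays below the 3 *snf1* arrays. The list's median ratio was 0.24, 0.51 and 0.26 on the *snf1* arrays and -0.03, -0.28 and -0.41 on the *cdc14-3 snf1* arrays. At 90 min the median difference was -0.09, with 27 of 47 genes below 0, where 48.1% of all genes were. *SSA4*, the stress-inducible Hsp70, gave 4.71, 4.99 and 3.48 in *snf1* and 3.54, 1.53 and 0.54 in *cdc14-3 snf1*, which overlapped only through the 90 min array (-3.20, SE 0.52, adjusted p = 0.0116 in limma). The J protein gene *APJ1*, the Hsp70 exchange factor *FES1* and *ZPR1*, which helps fold a translation elongation factor, differed by -2.49, -2.48 and -2.48 at 2 h and by -0.89, -1.0 and -0.88 at 90 min. *HSP42*, a small heat shock protein, gave 4.40, 3.91 and 3.35 against 3.30, 2.10 and 1.59 (-1.79, adjusted p = 0.0101), without overlap.

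The Hsp90 genes were lower too. *HSC82*, the constitutive one, gave 0.12, 0.37 and 0.25 in *snf1* and -0.25, -0.88 and -1.0 in *cdc14-3 snf1* (-1.25, SE 0.15, adjusted p = 0.00882 in limma), and the inducible *HSP82* differed by -1.23 (adjusted p = 0.0199). Not every stress chaperone was called. *HSP104*, the disaggregase, differed by -0.81 (adjusted p = 0.086) and *HSP26*, a small heat shock protein, by -0.06 (adjusted p = 0.837). The called members that were higher were *HSP33* (0.73) and *JEM1* (1.03), a J protein of the endoplasmic reticulum. Without *snf1* replicate 2 the list had 2 genes called lower and without *cdc14-3 snf1* replicate 2 it had 8, at medians of -0.79 and -0.98. *RPN4*, the transcription factor of proteasome genes, also differed (2.54, 2.09 and 1.55 against 1.48, -0.03 and 0.32, -1.68 at 2 h, adjusted p = 0.00917). Of the 40 genes of the proteasome list, which holds *RPN4*, 4 were lower and 1 higher. In either direction 12.5% of that list was called, against 22.7% of all genes tested.

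Genes for making ribosomes had lower ratios in *cdc14-3 snf1* at 2 h. Of 151 genes for ribosome biogenesis and RNA polymerase I 88 were called lower and 2 higher, with a median of -0.78. Of 137 cytosolic ribosomal protein genes 79 were lower and 0 higher, with a median of -0.75. Over all genes tested 12.8% were lower and 9.84% higher. At 90 min the medians were 0.06 and 0.32, with 90 of 151 and 135 of 137 genes above 0. The arrays show where the heat times parted. The median ratio of the ribosomal protein genes was -1.60, -0.53 and -0.41 on the *snf1* arrays and -1.27, -1.12 and -1.23 on the *cdc14-3 snf1* arrays, so the 90 min array of *snf1* was the lowest of all 6 and its 2 h arrays the highest. Ribosome biogenesis genes gave -1.02, -0.11 and -0.39 against -0.92, -1.06 and -1.03. The strain difference depended on heat time at an unadjusted p under 0.05 in limma for 101 of the 137 and 74 of the 151 genes, where 20.5% of all genes did, and for none after adjustment.

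Single genes showed this pattern. *RPS3*, a protein of the small subunit, gave -1.06, 0.43 and 0.16 in *snf1* and -0.90, -1.05 and -0.97 in *cdc14-3 snf1* (-1.30 at 2 h, adjusted p = 0.0115 in limma, and 0.16 at 90 min). *NOP7*, a factor of large subunit assembly, gave -1.18, 0.33 and -0.11 against -1.27, -1.79 and -1.23 (-1.62 at 2 h, adjusted p = 0.0099, and -0.09 at 90 min). *RRP1*, which also acts in ribosomal RNA processing, differed by -1.69 at 2 h and 0.29 at 90 min. Most ribosomal proteins have a pair of nearly identical genes that probes may not separate, and the count of 79 overstates the number of separate measurements. With an array of either strain left out at 2 h, the median of the ribosomal protein list stayed between -0.81 and -0.66, though no member was called without replicate 2 of either strain, 17 were without *snf1* replicate 3 and 25 without *cdc14-3 snf1* replicate 3. For ribosome biogenesis the lower calls fell to 0 without *snf1* replicate 2, to 3 without *cdc14-3 snf1* replicate 2 and to 45 without its replicate 3, at medians between -0.96 and -0.65. Mitochondrial ribosomal proteins were lower for 11 of 78 and higher for 1 (*MRPL40*, 0.63), where 12.8% of all genes tested were lower. In either direction 15.4% of this list was called, against 22.7% of all genes tested. Its median was -0.14 at 2 h (between -0.24 and -0.04 when an array was left out) and 0.34 at 90 min.

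**Figure D4:**
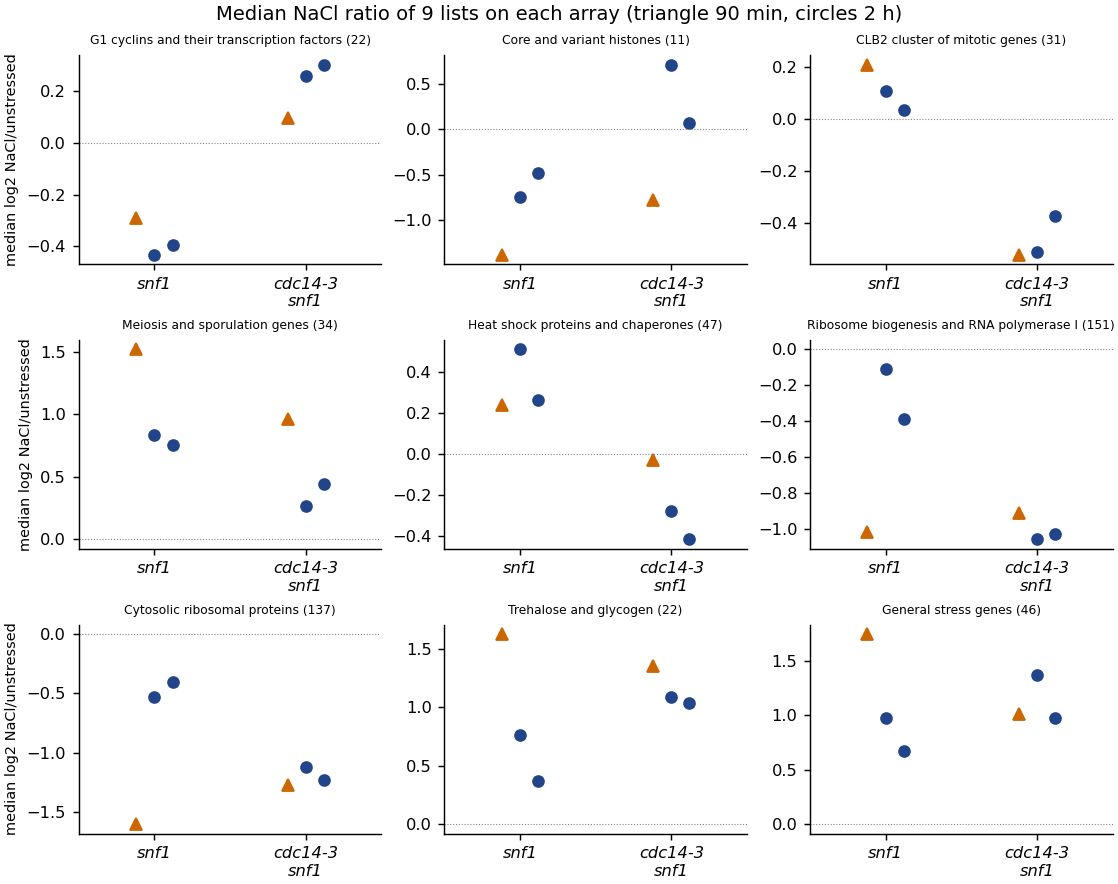
Median log2 ratio of NaCl-treated over unstressed cells over the members of 9 lists on each array, with the 90 min array as a triangle and the 2 h arrays as circles. Scales differ between panels. The G1 cyclin, *CLB2* cluster and chaperone medians part the strains at both heat times. For chaperones, however, the median of the gene differences at 90 min is only -0.09, with 20 of 47 genes above 0. The 90 min array of *snf1* lies below all arrays of the double mutant for ribosomal proteins (-1.60) and within their range for ribosome biogenesis (-1.02).

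General stress genes showed the opposite order at the 2 heat times. Of 46 such genes 12 were called higher and 2 lower at 2 h (median 0.37), where 9.84% and 12.8% of all genes tested were. At 90 min the list's median was -0.45 with 9 genes above 0. In the trehalose and glycogen list 11 of 22 were higher and 2 lower (0.58 at 2 h, -0.43 at 90 min), and in the study's list of 67 Hot1 targets 16 were higher and 4 lower (0.25 and -0.39). These counts and medians rest on single arrays. General stress genes had 1 higher call without *snf1* replicate 2, 2 at a median of 0.20 without *cdc14-3 snf1* replicate 2, and 14 at 0.53 without its replicate 3. Hot1 targets had 0 and 2 higher calls without replicate 2 of *snf1* and of *cdc14-3 snf1* and 7 at a median of 0.13 without *snf1* replicate 3, and the median was 0.48 without *cdc14-3 snf1* replicate 3. In the trehalose list none was called without replicate 2 of either strain. *CTT1*, the cytosolic catalase, gave 5.04, 2.78 and 1.76 in *snf1* and 3.55, 3.97 and 3.66 in *cdc14-3 snf1* (1.54 at 2 h, SE 0.33, adjusted p = 0.0219 in limma, and -1.48 at 90 min). The double-mutant arrays were close together and the *snf1* arrays spread around them. *TPS2*, a phosphatase of trehalose synthesis, gave 2.80, 1.47 and 0.74 against 2.41, 2.85 and 2.41, and *TKL2*, a stress-induced transketolase, gave 4.91, 2.14 and 1.07 against 3.01, 3.77 and 3.0. In both genes the 90 min array of *snf1* was far above its 2 h arrays, as for *CTT1*. Of the lower genes, the glycogen synthase gene *GSY1* (-1.04 at 2 h, -1.65 at 90 min) and *HSP30*, a plasma membrane heat shock protein (-1.39 and -1.65), kept their side at both heat times.

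Genes for glycerol and salt transport were higher at 2 h in part. Of 15 glycerol genes 4 were called higher and 1 lower, where 9.84% and 12.8% of all genes tested were. *GPP1*, a glycerol-3-phosphatase, gave -0.69, -0.48 and -0.56 in *snf1* and -0.21, 0.97 and 0.50 in *cdc14-3 snf1* without overlap (1.26, SE 0.21, adjusted p = 0.0131 in limma), and *DAK1*, a dihydroxyacetone kinase, differed by 1.56. The classic markers of the response were not called. *GPD1*, the enzyme that starts glycerol synthesis, gave 4.11, 3.65 and 2.81 against 3.69, 3.53 and 3.27 (0.17, adjusted p = 0.688), and *STL1*, the glycerol importer, gave 6.51, 6.99 and 5.80 against 6.32, 7.41 and 6.45 (0.53, adjusted p = 0.399). *GUP2* was the lower one, at -2.03 at 2 h and -1.68 at 90 min. Of 27 genes of the HOG pathway, which senses high osmolarity, 7 were higher and 2 lower, among them the sensor *MSB2* (1.36) and the kinase kinase *PBS2* (0.89), while *HOG1* itself differed by 0.04 (adjusted p = 0.862).

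The sodium pump genes were the clearest case in the list for sodium and potassium transport, where 8 of 23 were higher and 0 lower. Over all genes tested 9.84% were called higher and 12.8% lower. *ENA1* gave 1.60, 0.57 and 0.14 in *snf1* and 1.63, 2.69 and 2.08 in *cdc14-3 snf1* (2.03, SE 0.27, adjusted p = 0.00914 in limma). The 90 min arrays of the strains were 0.03 apart, and the distance between the strains lay in the 2 h arrays. *ENA2* and *ENA5* differed by 2.04 and 1.99, but these pump genes are nearly identical tandem copies and their values may be one measurement.

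Glucose transport genes differed by member. In the list of glucose sensing and hexose transport 8 of 41 were called lower and 5 higher, where 12.8% and 9.84% of all genes tested were. The share called higher was near that over all genes. *HXT4*, an intermediate-affinity glucose transporter, gave 2.76, 2.12 and 1.87 in *snf1* and 1.17, -0.96 and -0.78 in *cdc14-3 snf1* (-2.87, SE 0.22, adjusted p = 0.00564 in limma, without overlap). *MTH1*, a co-repressor of hexose transporter genes, gave 2.93, 2.25 and 1.83 against 1.48, -0.91 and -0.25 (-2.62, SE 0.28, adjusted p = 0.00796). Both genes were above 0 on all *snf1* arrays and, in the double mutant, on the 90 min array alone. *HXT7*, a high-affinity transporter, gave 2.35, 0.76 and 0.53 against -0.48, -1.09 and -0.41 (-1.40 at 2 h and -2.83 at 90 min), and *HXT6*, nearly identical to it and perhaps the same measurement, differed by -1.24 and -2.73. *HXT1*, the low-affinity transporter of high glucose, was higher at 2 h (1.13, -0.25 at 90 min).

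Several other of the most distant genes are given singly, and whether they share a regulator was not tested. *ARO10*, a decarboxylase of amino acid breakdown to fusel alcohols, gave 1.67, -0.02 and 0.07 in *snf1* and 2.00, 2.89 and 1.89 in *cdc14-3 snf1* (2.36, SE 0.31, adjusted p = 0.00914 in limma). With *ARO9*, an aromatic aminotransferase (1.48), it was among 7 higher and 2 lower of 37 genes of amino acid breakdown. Over all genes tested 9.84% were called higher and 12.8% lower. *CSI2* differed by 2.05 at 2 h and 0.91 at 90 min. On the lower side, *ANB1*, an isoform of translation factor eIF5A, gave 0.71, 0.91 and 1.14 in *snf1* and -0.53, -1.05 and -1.22 in *cdc14-3 snf1* (-2.16, SE 0.27, adjusted p = 0.00882). *TIR1*, a cell wall mannoprotein, gave 1.76, 0.85 and 0.98 against -0.37, -0.82 and -0.47 (-1.56 at 2 h, -2.13 at 90 min). Both were on opposite sides of 0 in the strains on all arrays. *AAC3*, a mitochondrial ADP/ATP carrier, differed by -2.46, and its double-mutant arrays were spread from -2.53 to 0.25. Among features with a systematic name only, YBL096C (-3.18), YPR064W (-2.86), YCR087W (-2.83), YKR075C (-2.64), YMR317W (-2.37) and YIL060W (-1.78) were lower at 2 h, and YIL060W had one of the smallest p over all arrays (-1.89, adjusted p = 0.0574). The sources do not say whether strand was resolved, so a feature that overlaps another gene may carry its signal. The serine tRNA features tS(GCU)F and tS(GCU)O were higher, at 2.03 and 2.02.

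Amino acid synthesis (14 of 72 lower, 1 higher, median -0.65 at 2 h and 0.14 at 90 min), sulfur metabolism (8 of 39 lower, 2 higher), glycolysis and fermentation (7 of 29 lower, 1 higher) and purine and pyrimidine synthesis (7 of 35 lower, 2 higher) had more lower than higher calls at 2 h, where 12.8% of all genes were lower and 9.84% higher. For amino acid synthesis the lower calls ranged from 0, without replicate 2 of either strain, over 1, without *snf1* replicate 3, to 37, without *cdc14-3 snf1* replicate 3, and the median from -0.33 without *cdc14-3 snf1* replicate 2 to -0.97 without its replicate 3. *AAH1*, which encodes adenine deaminase, gave -2.24, -1.33 and -1.12 in *snf1* and -2.33, -3.58 and -3.0 in *cdc14-3 snf1* (-2.07, adjusted p = 0.0084 in limma). In the TCA and glyoxylate list 7 of 46 were lower and 0 higher, with *MPC3*, a subunit of the mitochondrial pyruvate carrier, at -2.34 and *CRC1*, a carnitine carrier, at -1.93. The phosphate regulon had 5 of 29 in each direction, with the acid phosphatase genes *PHO3* (-2.05), *PHO11* and *PHO12* lower. Respiratory chain genes (3 of 48 higher, 0 lower), ergosterol synthesis (1 of 30 lower, 0 higher), peroxisome genes (4 of 43 in each direction) and the pentose phosphate pathway (4 of 20 higher, 2 lower) had few calls or calls both ways. Cell wall genes (9 of 47 higher, 6 lower), the iron regulon (6 of 32 higher, 2 lower), autophagy genes (5 of 36 higher, 2 lower) and the flocculin list (6 of 11 higher, 0 lower) had more higher than lower calls, but the share of autophagy genes called higher and that of cell wall genes called lower were near those over all genes. *BSC1*, of the last list, gave -3.85, -5.21 and -4.61 in *snf1* and -3.88, -2.37 and -1.62 in *cdc14-3 snf1*, below 0 on every array and least so on the 2 h arrays of the double mutant (2.91, SE 0.30, adjusted p = 0.00796).

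Gene length moved with the strain difference, in opposite directions at the 2 heat times. Over 5682 protein-coding genes with a length in the RefSeq table for assembly R64, where 96.2% of lengths were multiples of 3, the 2 h difference correlated with log2 coding length with r of 0.25 and the 90 min difference with r of -0.25, as a description across genes. Of the 533 genes over 3000 bases, 28.9% were called higher and 2.63% lower at 2 h, and of the 738 genes of 300 to 600 bases 2.85% were higher and 18.8% lower. The r of ratio with length was 0.05, -0.17 and -0.30 on the *snf1* arrays and -0.07, -0.08 and 0.04 on the *cdc14-3 snf1* arrays. Of the lists of long genes, cohesin (median 2699 bases) and flocculin genes (2753 bases) were on the higher side at 2 h, and so were the single long genes *MEC1* (0.98), *DYN1* and *ESP1*, all below 0 at 90 min. Also higher at 2 h by their medians were trehalose and glycogen (2116.5 bases, 0.579), sodium and potassium transport (2079 bases, 0.345) and DNA damage repair (2044.5 bases, 0.346). The Mcm1 list (2328 bases), spindle genes (1944 bases), the *CLB2* cluster (1665 bases) and ribosome biogenesis (1518 bases), all longer than the median of 1248 bases over all genes, were on the lower side. Ribosomal protein genes (median 771 bases) were on the lower side too, and the histone genes (399 bases), among the shortest, on the higher.

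With each array's trend on length removed, an alternative chosen after seeing the data, 1272 of 5682 genes were called at 2 h, 560 higher and 712 lower, and 1019 of them were among the 1382. The medians of mitochondrial ribosomal proteins (0.021), the proteasome (0.04) and amino acid breakdown (0.08) were then above 0. G1 cyclins and their factors then had a median of 0.69 with 12 of 22 higher, histones 1.21 with 9 of 11 higher, the *CLB2* cluster -0.57 with 17 of 31 lower, chaperones -0.90 with 29 of 47 lower and ribosome biogenesis -0.79 with 99 of 151 lower. The ribosomal protein median became -0.59 with 60 of 137 lower, and the flocculin median 0.49 with 4 of 10 higher. The part of length in the differences that remain was not tested.

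**Figure D5:**
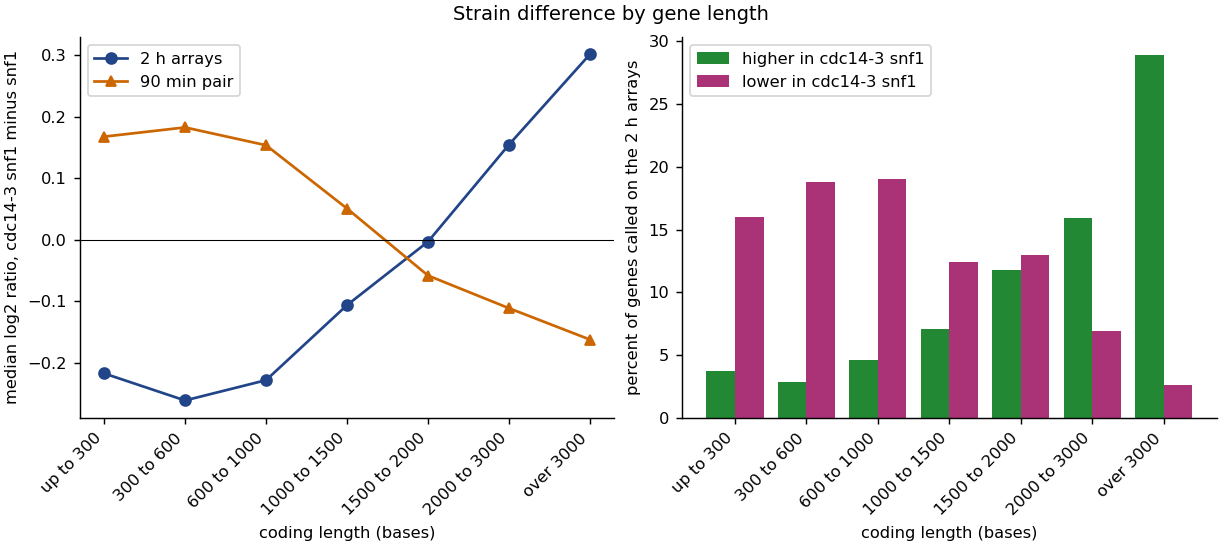
Left, median difference in log2 NaCl ratio (*cdc14-3 snf1* minus *snf1*) by coding length in bases, for the 2 h arrays (circles) and the 90 min pair (triangles). Right, percent of genes called higher or lower on the 2 h arrays in the same length classes. The 2 h median runs from -0.26 at 300 to 600 bases to 0.30 over 3000 bases, and the 90 min median from 0.18 to -0.16.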

How the data were processed

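Each array of the deposited table holds, per feature, a log2 ratio of NaCl-treated over unstressed cells, made by the authors from whole-genome tiled 2-colour arrays with the same dye orientation throughout. How probes were combined and normalized, and why 92 to 703 values are missing per array, is not given in the sources used here. Array medians were 0 to within 0.001, and values were used as deposited. One mean per strain was fitted in limma 3.58.1 (R 4.3.3) with eBayes and the Benjamini-Hochberg adjustment, at an adjusted p of 0.05. One fit took all 8 arrays, over features present at least 2 times in each strain, and the other took the 6 arrays held for 2 h, over features without missing values there. The *cdc14-3* arrays shared the estimate of spread. The fits were tested on simulated data. Symbols (5984 features) and lengths came from a RefSeq table for assembly R64. No coordinates are given because the build behind the values is not named. The number of arrays limits the precision.

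The members and lists were chosen with earlier results of these data known. Lists (41, of which 1 is not reported here) were described by counts and medians without a test. Named were *CLB6* and 9 other genes central to the study, the 12 most distant genes in each direction among those called at 2 h and apart on all 6 arrays, the 5 with the smallest p over all arrays in each direction, up to 5 called genes per list and direction, and members that define a list. Alternatives were array weights, scaling arrays to one spread, other filters on missing values, a robust prior, the replicate number as a block, heat time as a covariate, fewer strains, leaving out each array, and an adjustment for gene length.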

Additional observations from a re-analysis of the deposited data

Results flagged for a closer look

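Of the lists, 3 had median strain differences of 0.3 or more on the log2 scale that pointed one way for every pairing of 2 h arrays and the other way in the 90 min pair. For cytosolic ribosomal proteins the median difference was -0.75 at 2 h and 0.32 at 90 min. For trehalose and glycogen genes it was 0.58 at 2 h and -0.43 at 90 min. For the flocculin list with *PRM7* it was 0.84 at 2 h and -0.36 at 90 min. The difference between heat times was not tested for a list, and no gene passed the adjusted test of it.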

How the results depend on the processing

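Over all arrays, where no gene was called, limma called 1657 genes with array weights, 1382 on the 2 h arrays alone, 110 with heat time as a covariate, 10 with the replicate block, 5 adjusted for gene length (chosen after seeing the data), and 0 to 731 with an array left out, the most without *snf1* replicate 1, then 257 without *cdc14-3 snf1* replicate 1. The 2 h count of 1382 ran from 8 to 1103 with an array left out and was within 1.5 times that count under the other settings, 1273 with the replicate block. Deviations from the strain mean correlated with r of 0.16, 0.042 and 0.21 between same-numbered arrays of the strains. Between arrays of different number r ran from -0.23 to 0.10. The main fits did not pair the arrays, whereas the replicate block does use the numbers. The heat time test called 2 genes with arrays scaled to one spread and 11 adjusted for gene length. Of 260 named genes called at 2 h, 203 stayed called under every setting that kept the arrays, 5 also under every setting that left 1 out, and none turned its direction. Only genes that were not called turned. The called genes were chosen on the same arrays, so their unchanged direction is no separate check. At 2 h, leaving out an array gave -0.25 to 0.59 for *GPD1*, -0.059 to 1.13 for *STL1*, -0.041 to 0.13 for *HOG1*, -0.29 to 0.17 for *HSP26*, -0.031 to 0.31 for *NET1*, -0.29 to 0.32 for *SIC1* and -0.070 to 0.47 for *WHI5*. Adjusting for length gave 0.12 for *HSP26*, -0.11 for *NET1* and 0.0045 for *TEM1*, and scaling gave 0.015 for *HSP26*. Over all arrays *GPD1*, at -0.031, became 0.53 with scaling, 0.012 adjusted for length, 0.17 at 2 h alone, and -0.39 to 0.26 with an array left out. *SNF1*, at -0.39, became 0.23 with array weights, 0.52 at 2 h alone, and -0.89 to 0.54 with an array left out. *STL1*, at 0.29, ran from -0.049 to 0.57. The cause was not tested.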

Other observations

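Features of the mitochondrial genome stood apart in the 90 min pair only. The 18 protein features had a median difference of -1.86 there, from -2.47 to -0.72, and of 0.14 on the 2 h arrays, where none was called. Nuclear tRNA features were called higher for 20 of 112 at 2 h and lower for 0, with medians of 0.44 at 2 h and 0.16 at 90 min. Of all genes tested at 2 h, 9.84% were called higher and 12.8% lower. Many tRNA genes are identical copies, and these sets were chosen after their values were seen. Features of small nucleolar and nuclear RNAs gave 0 higher and 2 lower of 67, with a median of -0.14.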
